A study of Drosophila melanogaster with 3 samples.

Results

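The gene tara (taranis, FBgn0040071) lies on the plus strand of chromosome arm 3R from 16225651 to 16260329 in dm6 coordinates. It is described here as a locus bound by Mirror. It was selected on its dense cluster of Mirror peaks, so the number and signal of those peaks are a description and were not tested. The locus is the 34.7-kb gene with 20 kb on each side (3R, 16205651 to 16280329), and its members are all peak summits in that window. They number 25 of 6201 summits in the list filtered by irreproducible discovery rate (IDR, a comparison of peak ranks between replicates). A further list called on the 3 replicates together without that filter, the pooled relaxed list, held 65 of 30000. The relaxed lists of replicates 1, 2 and 3 held 66, 72 and 62 of 30000 summits each. The gene itself is 1 of 13945 protein-coding genes on the chromosome arms.

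The data are chromatin immunoprecipitation sequencing (ChIP-seq) of whole Drosophila melanogaster embryos, 4 to 20 h old and of mixed sex, from the strain mirr-GFP. All embryos came from this transgenic line, which stably expresses Mirror with GFP fused to its C terminus. The 3 samples are biological replicates 1, 2 and 3 of 1 group, with no untagged or untreated group, so the design holds no comparison between conditions. The free text of each sample names an input control, but its title and antibody field name transcription factor ChIP, and the lists were read as ChIP peaks. Whole embryos mix tissues, so strong binding in few cells and weak binding in many cannot be told apart. Read numbers are not given in the sources used here, so the depth is unknown. Each peak carries a signal set by the authors without a stated scale, used here only to order the peaks of 1 list (rank 1 is the strongest).

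Mirror is a homeodomain transcription factor and 1 of the Iroquois proteins, which are known for patterning eyes, wings and other body regions. The protein encoded by tara is a transcriptional coregulator of the trithorax group, a class of genes known for keeping developmental genes active. It is related to the SERTA-domain (TRIP-Br) proteins of mammals, which are known to link the cell cycle factors E2F and DP to other regulators. In flies tara is also known for promoting sleep together with Cyclin A, and for keeping posterior identity during regeneration of the wing disc. The annotation gives 2 transcripts, tara-RA from 16225651 and tara-RB from 16242816. Each has its own first exon and both share the last exon (16256778 to 16260329), which holds nearly all of the coding sequence, so the transcripts differ in promoter and in the first codons. The tara-RA intron spans 30338 bp and contains the whole tara-RB promoter.

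The 5 peaks below are shown by sequence because they carry the main features of the locus: the strongest peak upstream, the strongest peak in the gene, the tara-RB promoter peak, a peak on CA repeats, and the only one with a GATA match. Peaks are numbered from 1 to 25 by falling IDR signal within the locus. Each run is the plus strand, 5′ to 3′, 100 bases to each side of the IDR summit, from the RefSeq release 6 genome. Capitals mark matches to any of 10 searched sequences, here CA repeats, the GAGA sequence and the GATA sequence, and a run with no capitals holds no match.
Peak 1, 3178 bp upstream of the tara-RA start (chr3R:16222373-16222573): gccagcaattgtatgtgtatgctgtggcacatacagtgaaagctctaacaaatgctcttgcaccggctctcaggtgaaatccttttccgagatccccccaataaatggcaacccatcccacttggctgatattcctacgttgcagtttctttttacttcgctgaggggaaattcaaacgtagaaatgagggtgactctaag
Peak 2, intron shared by both transcripts (chr3R:16250180-16250380): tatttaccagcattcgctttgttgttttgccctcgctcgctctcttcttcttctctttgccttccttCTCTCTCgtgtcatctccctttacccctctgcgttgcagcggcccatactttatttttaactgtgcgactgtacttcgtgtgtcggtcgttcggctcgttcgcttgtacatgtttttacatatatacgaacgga
Peak 3, tara-RB promoter (chr3R:16242584-16242784): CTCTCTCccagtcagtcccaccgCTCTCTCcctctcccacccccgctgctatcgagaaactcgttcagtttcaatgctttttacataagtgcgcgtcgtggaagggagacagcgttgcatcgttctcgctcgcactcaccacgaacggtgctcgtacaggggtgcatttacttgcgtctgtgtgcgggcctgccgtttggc
Peak 5, 4098 bp upstream of the tara-RA start (chr3R:16221453-16221653): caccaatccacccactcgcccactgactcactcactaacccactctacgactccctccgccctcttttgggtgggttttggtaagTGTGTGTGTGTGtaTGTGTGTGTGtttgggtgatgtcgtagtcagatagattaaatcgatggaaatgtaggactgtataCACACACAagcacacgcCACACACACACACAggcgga
Peak 12, intron of gish (chr3R:16275468-16275668): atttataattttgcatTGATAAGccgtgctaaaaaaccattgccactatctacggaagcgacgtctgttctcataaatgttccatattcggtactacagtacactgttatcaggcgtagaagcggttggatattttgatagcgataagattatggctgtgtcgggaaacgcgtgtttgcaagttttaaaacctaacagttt

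Each promoter of tara, taken as 500 bp to either side of a transcription start site (TSS), held 1 IDR summit, and tara introns held 11. Per length the promoters were the densest, at 9.99 summits per 10 kb each from that single summit, against 4.62 in the upstream flank and 4.33 in the intron between the promoters. The intron before the last exon had 2.97, and the downstream flank fewer. The upstream flank held 9, the last exon held 0 and the downstream flank held 3. The same tally on the 6201 strongest regions of each replicate, called the strongest regions from here on, gave 23, 27 and 25 summits in replicates 1, 2 and 3, or 25.0 ± 2.00 (SD, n = 3). Every one of these replicate lists also had 0 in the last exon and 8 in the upstream flank. The IDR summits came to 3.35 per 10 kb of the locus, against 0.468 per 10 kb of arm 3R. Neighbouring summits were 1289 bp apart at the median and 202 to 14482 bp in range, compared with a median of 5011 bp over the arms.

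**Figure D1:**
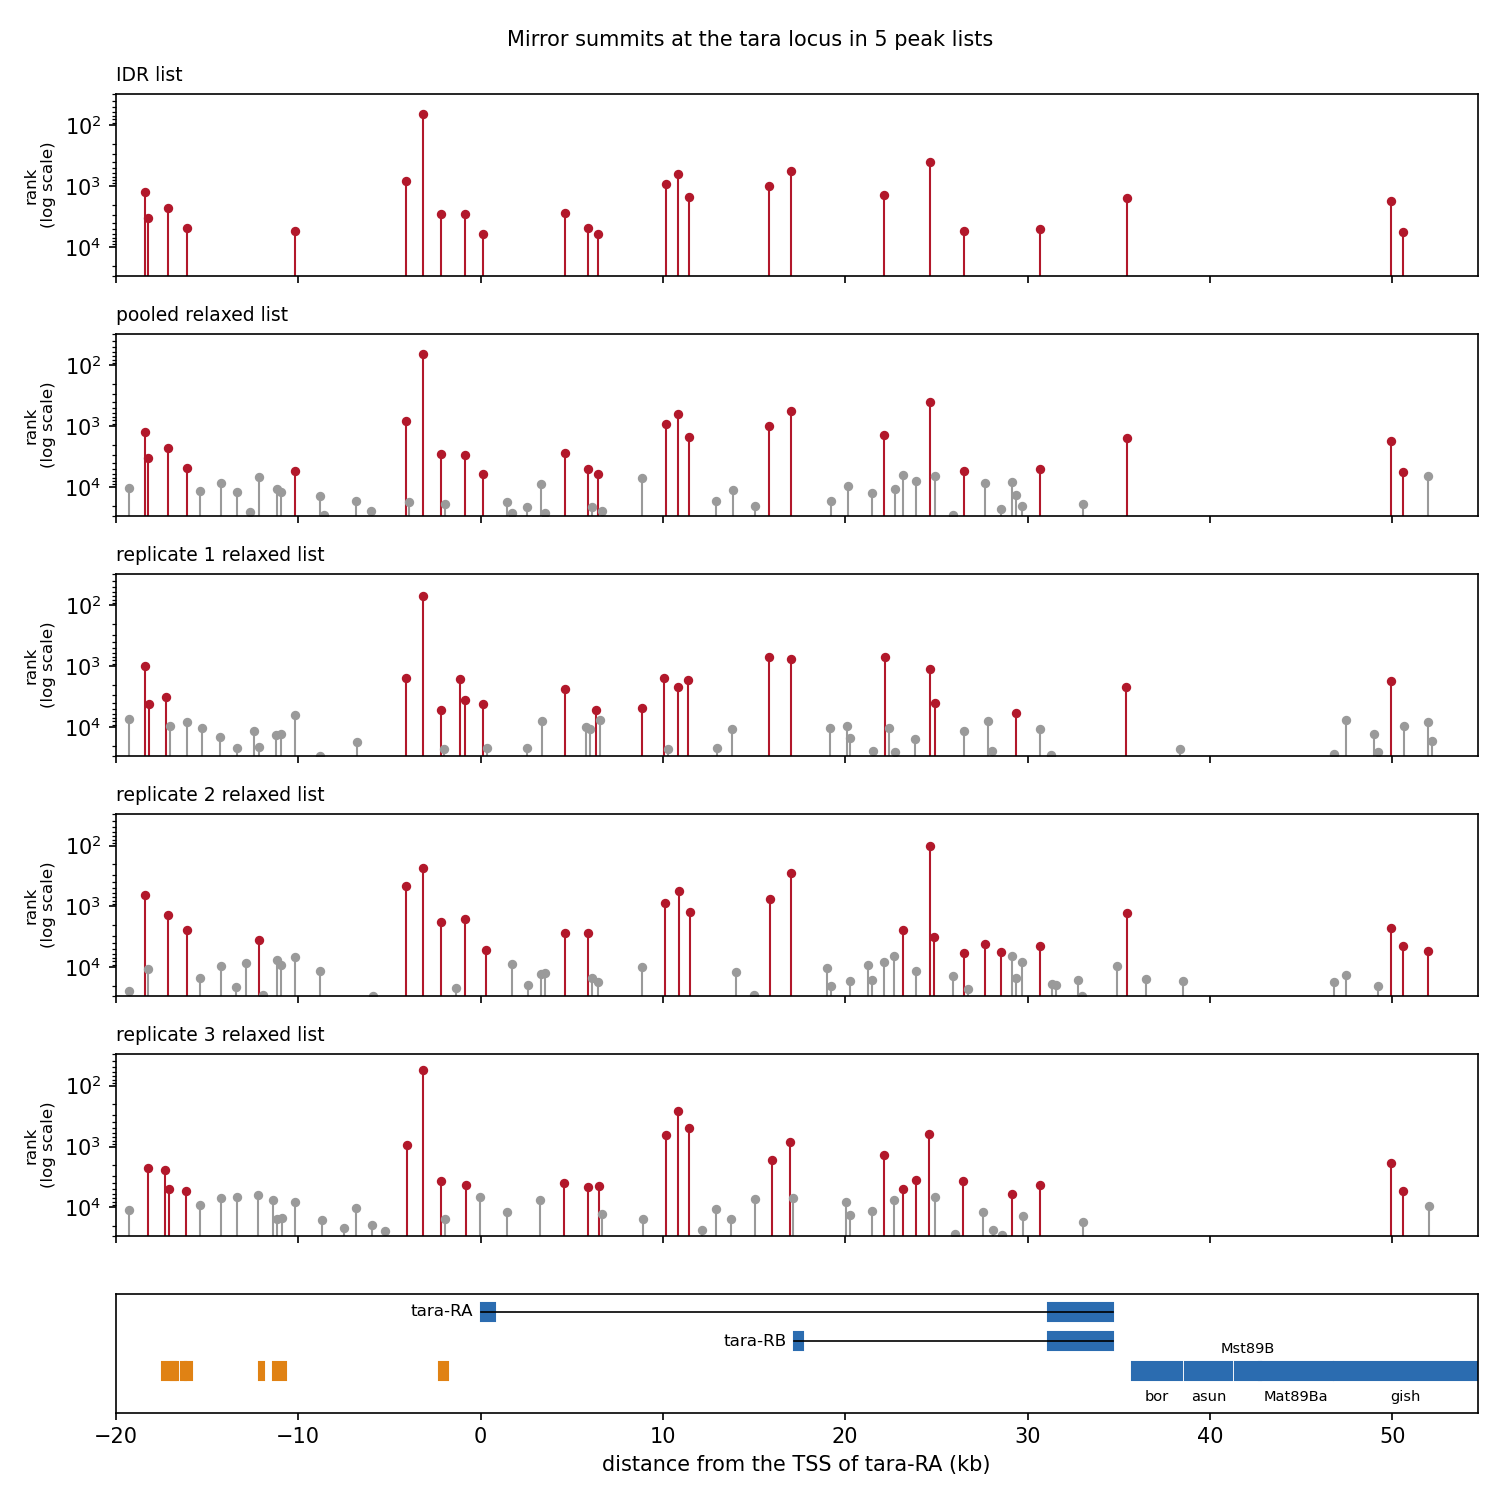
Summits of the 5 lists along the tara locus, placed by distance from the tara-RA start in kb, with rank on a log axis (higher is stronger). Red points are among the 6201 strongest of their list and grey points are weaker; in the gene model, blue boxes are exons of tara or bodies of protein-coding genes and orange boxes are non-coding RNA genes. Red points stand on both sides of the tara-RA start in each list, and from 18.4 kb upstream in the IDR list, where a stretch of 14482 bp over bor, asun, Mst89B and Mat89Ba holds no summit.

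The promoters of tara differed in the rank of their peaks. At the tara-RB promoter, peak 3 (16242572 to 16242810) had its summit 132 bp upstream of the start, with a signal of 647.8 and IDR rank 562. Its ranks were 763, 283 and 855 in replicates 1, 2 and 3, each within the strongest regions. At the tara-RA promoter, peak 25 (16225591 to 16225986) had its summit 138 bp into the first exon, within the 5′ UTR. It was the weakest IDR peak of the locus, with a signal of 193.9 and rank 6050, close to the lowest signal of the list, 190.7. Replicates 1, 2 and 3 ranked it 4214, 5138 and 6706, so replicate 3 left it outside the strongest regions. In every replicate the tara-RB peak was the stronger of the pair, and the ranks at the 2 promoters did not overlap between replicates. Peak 16, only 100 bp wide, lay 846 bp upstream of tara-RA, at IDR rank 2902 and replicate ranks 3573, 1580 and 4247.

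The highest signal of the locus stood upstream of both promoters. Peak 1 (16222317 to 16222633) had a signal of 1362 and IDR rank 65, in intergenic sequence 3178 bp upstream of tara-RA. Its signal was 557.5, 234.8 and 569.7 in replicates 1, 2 and 3, on scales that are not shared, and its ranks were 70, 238 and 55. Replicate 2 thus ranked it lowest, and it was the first peak of the locus in replicates 1 and 3 but not in replicate 2. The summit of peak 5 lay 920 bp further upstream at IDR rank 831, with replicate ranks 1556, 459 and 936. On the other side of peak 1, peak 15 lay 2166 bp upstream of tara-RA and 90 bp from a start of the non-coding RNA gene lncRNA:CR45643, at IDR rank 2835.

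The remaining upstream peaks formed a second group between 16.1 and 18.4 kb from tara-RA, with peak 22 alone between the groups. Peaks 8 and 17, with summits 202 bp apart, had IDR ranks 1252 and 3305, and the region of highest signal overlapping them was the same for both in each replicate, at ranks 995, 647 and 2236. Nearer to the summit of peak 17 lay separate regions of replicates 1 and 2, at ranks 4171 and 10682, so replicate 2 counted it among its strongest regions only through the region at peak 8. In replicate 3 the shared region had its summit at peak 17, 196 bp from that of peak 8. Replicate 3 thus counted peak 8 among its strongest regions only through the region at peak 17. Peaks 13 and 18 lay 187 and 57 bp from starts of the non-coding RNA genes lncRNA:CR45640 and lncRNA:CR45638, at IDR ranks 2269 and 4856. Their summits were inside the bodies of lncRNA:CR45639 and lncRNA:CR45637. There, 4 genes of this kind lie close together, and 3 of the 9 upstream summits lay within 500 bp of a non-coding RNA start. These 3 were the only ones among the 25 of the locus, against 4.31% of all IDR summits. No function of these RNAs is given in the annotation. Peak 22, at 10.2 kb upstream and IDR rank 5483, was the 1 IDR peak of the locus outside the strongest regions of all replicates, with ranks 6337, 6706 and 8219.

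The intron between the promoters held 7 IDR summits, with a cluster of 3 at 10.2 to 11.4 kb from tara-RA. These were peaks 6, 4 and 10, at IDR ranks 914, 632 and 1477. Peak 4, the strongest of them, had ranks 2140, 564 and 266 in replicates 1, 2 and 3, and the cluster ranked higher in replicate 3 than in replicate 1 at each of its 3 peaks. Peak 7, 1322 bp upstream of tara-RB at IDR rank 1000, had ranks 699, 755 and 1666. Nearer to tara-RA, peaks 14, 19 and 24 were weaker, at IDR ranks 2723, 4926 and 6016. For peak 24 the rank in replicate 2 was 14759, against 5260 and 4493 in replicates 1 and 3, the replicate 2 region being the one of higher signal among those that overlapped the peak. Its summit was 314 bp away, and a weaker replicate 2 region, at rank 17689, had its summit 7 bp from that of peak 24.

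Between the tara-RB promoter and the last exon, the IDR list held 4 summits and the strongest regions of replicates 1, 2 and 3 held 4, 7 and 7. Peak 2 (16249938 to 16250477), 7464 bp downstream of the tara-RB start, was the widest of the locus at 540 bp and had a signal of 746.8 at IDR rank 398. Its ranks were 1094, 102 and 626, and in replicate 2 it was the first peak of the locus. Peak 9, 4981 bp from tara-RB, had IDR rank 1373 and ranks 711, 8138 and 1354, so replicate 2 stood apart from the other replicates there. Peaks 21 and 20 were near the end of the IDR list, at ranks 5469 and 5099, and ranked 11533 and 10559 in replicate 1. Replicates 1, 2 and 3 had 4, 6 and 3 strongest regions in the locus that touched no IDR peak, and 2, 4 and 3 of these lay in this stretch. Some were shared by a pair of replicates, and none was among the strongest regions of all 3.

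Few summits lay downstream of tara. Peak 11 (16260979 to 16261192) had its summit 757 bp past the end of the gene, in the gap before bor, which encodes an AAA-type ATPase. It had a signal of 423.6 and IDR rank 1551, with ranks 2178 and 1302 in replicates 1 and 2, and it was the only IDR peak of the locus with no overlapping region in 1 of the relaxed lists, that of replicate 3. The nearest IDR summits to a start of bor, asun, Mst89B and Mat89Ba were 3009, 3185, 5926 and 3153 bp away. For gish, which runs past the window, the nearest was 149 bp from a start beyond the right edge. The gish starts at 16272452 and 16273001, inside the window, had 0 IDR summits within 500 bp. Replicates 1 and 2 had a weak region shared by the divergent starts of bor and asun, at ranks 22799 and 16542, and replicate 3 had none. The same held at the divergent starts of Mat89Ba and gish, at ranks 27637 and 17461. At the gish start at 16273001 the ranks were 7486 and 13444, again with none in replicate 3. Peaks 12 and 23 lay in introns of gish, which encodes a casein kinase I, at IDR ranks 1727 and 5677.

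**Figure D2:**
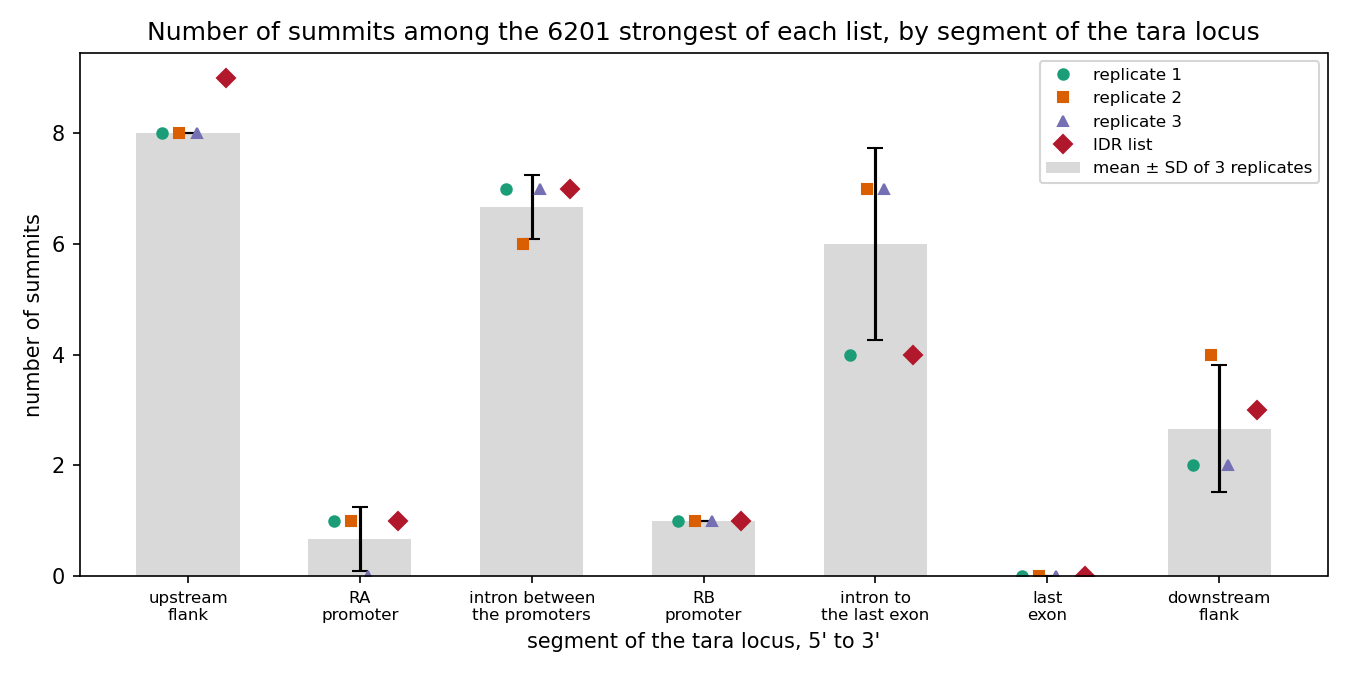
Number of summits among the 6201 strongest of each list (vertical axis) in 7 segments of the tara locus from 5′ to 3′; bars and error bars are the mean ± SD of the 3 replicates, points are single replicates and red diamonds the IDR list. Segments differ in length, from 1.00 kb at a promoter to 20.0 kb in a flank; the replicates spread most in the intron before the last exon, with 4, 7 and 7.

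The edges of the window and of the IDR list bear on these counts. The nearest IDR summits outside the window were 118 bp before its left edge, at rank 591, and 411 bp past its right edge, at rank 157. Inside it, the outermost summits were 1570 bp and 4065 bp from the edges, at ranks 1252 and 5677. Against the weakest IDR peak of the locus, with a signal of 193.9, the strongest pooled region off the IDR peaks had 188.9 and rank 6263.

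Recurrence in all 3 replicates was near that of the whole IDR list. All 3 replicates had a strongest region on 15 of the 25 peaks, against 56.1% of peaks in the whole IDR list. Another 9 peaks had one in exactly 2 replicates, 0 in 1 replicate, and peak 22 in none. Over all IDR peaks, 31.4% had one in exactly 2 replicates, 11.9% in 1 and 0.516% in none. Strongest regions of replicates 1, 2 and 3 lay on 19, 22 and 22 of the 25 peaks. Over the whole IDR list they lay on 5105, 4821 and 5154 of 6201 peaks. The peaks missing from 1 replicate were not the same in each: replicate 1 missed peaks 18, 19, 20, 21, 22 and 23, replicate 2 missed 9, 22 and 24, and replicate 3 missed 11, 22 and 25. With the whole relaxed lists, 24 of 25 had a region in every replicate, against 93.8% of all IDR peaks. Over 74 pairs of an IDR peak and a replicate region, the summits differed by 18.0 bp at the median, and in 65 pairs by at most 100 bp. Spearman's rho of the replicate ranks over the peaks of the locus was 0.696 between replicates 1 and 2 over 25 peaks. It was 0.767 between 1 and 3, and 0.756 between 2 and 3, over 24 peaks each. Over all IDR peaks the values were 0.520, 0.602 and 0.503. They are given as a description, since the replicate lists share 1 control and the peaks were chosen on the pooled reads of the same replicates.

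**Figure D3:**
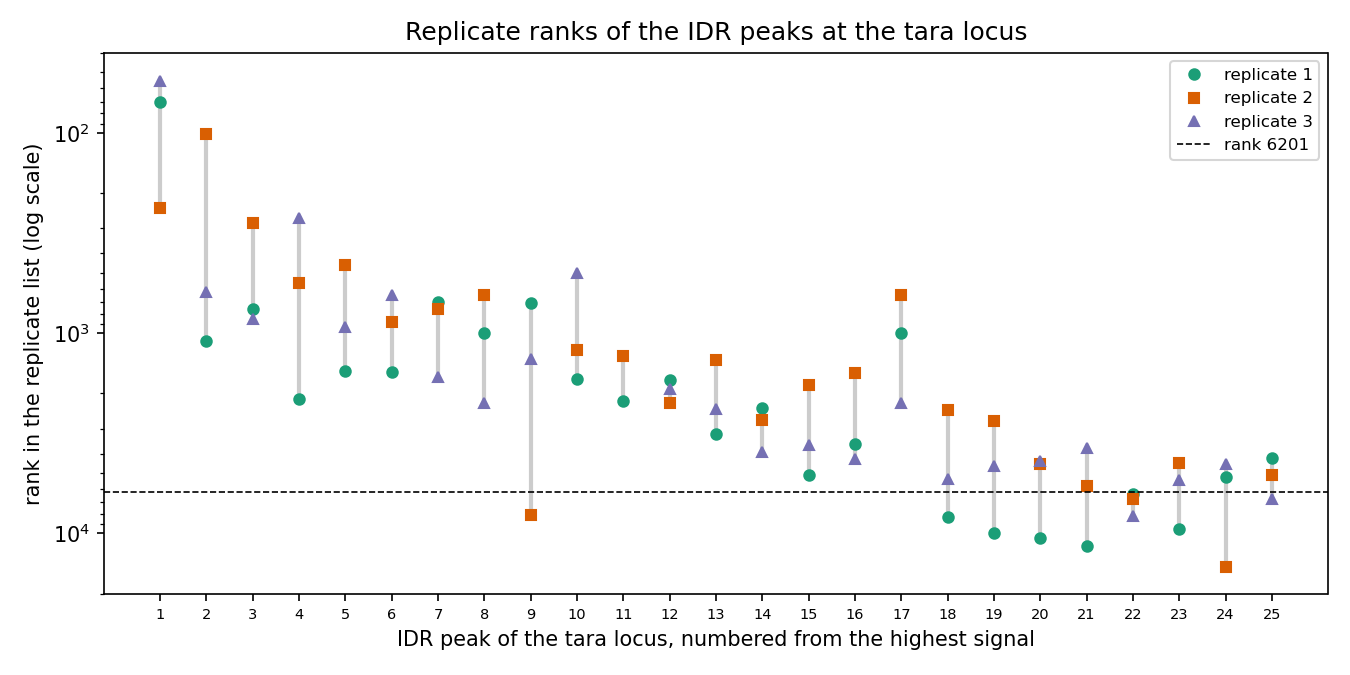
Rank in each replicate list (log axis, higher is stronger) of the region that overlaps each IDR peak of the tara locus, with peaks 1 to 25 in order of falling IDR signal; grey lines join the replicates and the dashed line is rank 6201. Peaks 1 to 8 lie above the line in all 3 replicates, replicate 2 drops below it at peak 9, and peak 11 has no point for replicate 3.

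By rank, the peaks of the locus were spread from the top to the end of the IDR list. Ranks 1 to 1550 held 10 of the 25 peaks, ranks 1551 to 3100 held 6, ranks 3101 to 4650 held 1 and the rest held 8. The median rank was 2269, and 1477 for the intron between the promoters, 2835 for the upstream flank and 3236 for the intron before the last exon. Under the IDR threshold lay further regions. Of the 65 pooled relaxed summits, 29 (44.6%) belonged to regions that overlapped an IDR peak, against 24.4% of all pooled regions. The locus was chosen for this density, so the difference is a description. The 95% Wilson interval of the share was 33.2% to 56.7%. It treats the summits as independent, although they are neighbours in 1 locus and some of the 29 overlapped the same IDR peak. It gives no spread between replicates. The other 36 pooled summits had pooled ranks from 6263 to 28969, with a median of 12296.5. Of them, 23 (63.9%) had a region in the relaxed list of every replicate, against 46.0% of all 22666 pooled regions off the IDR peaks. Those 22666 were weaker, with a median pooled rank of 18281.5, and recurrence at equal rank was not compared. Of these 36, 13 lay in the intron before the last exon, 12 in the upstream flank, 9 between the promoters, 1 in the last exon and 1 downstream.

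Of the 25 summit windows, 16 held none of the 10 searched sequences, against 36.7% of all IDR summit windows. The Iroquois sequence ACANNTGT, a palindrome known from binding studies of these proteins, had 0 matches within 100 bp of the 25 IDR summits, whereas 13.4% of all IDR summits had one. It had 2, 1 and 0 matches among the 23, 27 and 25 strongest summits of replicates 1, 2 and 3. The locus did not lack the sequence: it held 28 matches, or 3.75 per 10 kb against 3.56 on arm 3R. The match nearest to any IDR summit was ACATTTGT at peak 9, centred 101.5 bp away, and within 250 bp of summits peaks 2 and 23 also had one, ACATATGT in both. That is 3 of 25 in the wider window, against 26.1% of all IDR summits. Peak 1 had its nearest match 3064.5 bp away.

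The GATA factor sequence (TGATAAG, or the same with A as its first letter) lay within 100 bp of 1 of the 25 summits (4.00%), against 20.1% of all IDR summits. That summit was peak 12 in gish, with TGATAAG centred 81 bp from it, as printed above, so no summit within tara or upstream of it held the sequence at that distance. Within 250 bp, peak 20 in the tara intron also had TGATAAG, 169 bp away, which gives 2 of 25 against 31.5% of all IDR summits. The GAGA sequence GAGAGAG, which stands as CTCTCTC on the printed strand, was found at peaks 2, 3 and 16, against 7.43% of all IDR summits. CA repeats of 8 letters, CACACACA, were found at peaks 5, 7, 16 and 18, against 10.3%, with 10 matches at peak 5 when overlapping ones are counted separately. The TALE homeodomain sequence TGACAG was found at peaks 4 and 21, the latter 8 bp from the summit, against 7.58%. The DRE sequence TATCGATA and the Motif 1 sequence GGTCACACT had 0 matches in these windows, against 2.52% and 1.42% of all IDR summits. The E-box CAGCTG had 0 against 11.5%, the E-box CATATG 0 against 7.98%, and the homeodomain sequence TAATTA 0 against 11.0%. All were searched on both strands, and CA repeats and the GAGA sequence share no window except that of peak 16. Letters that are absent from a window of 201 bases say nothing about the factor. The windows were richer in G and C than those of the list, with a median of 50.2% (37.3% to 62.7%) against 43.3%, while the locus as a whole had 44.3% and arm 3R 42.6%.

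Compared with genes of similar length, tara held many summits, which is the property it was selected on. Its body held 13 IDR summits, a count that 9 of the 13945 protein-coding genes exceeded. Of the 499 genes within a log2 length difference of 0.5, tara included, it had the highest count, and their median was 1. In the strongest regions of replicates 1, 2 and 3 its body held 13, 15 and 15 summits, again the highest count among those genes. The 5 genes most like tara in the number of body summits were CG1677, Pdp1, dnc, SNF4Agamma and Tlk, by the Euclidean distance of log2(1 + count) over the 5 lists, at distances of 0.297, 0.308, 0.378, 0.431 and 0.504. Pdp1 encodes a basic leucine zipper factor of the circadian clock, dnc a cAMP phosphodiesterase, SNF4Agamma the gamma subunit of AMP-activated kinase and Tlk the Tousled-like kinase. All are longer than tara, from 55.9 kb for Pdp1 to 167.3 kb for dnc, and held 10 to 16 IDR summits. That is 0.598 to 2.50 per 10 kb against 3.75 for tara. The genes were matched on count and not on length, and the cause of the gap was not tested. Some shorter genes were denser than tara, such as CG3764 (11 IDR summits in 17.8 kb), atos (11 in 21.5 kb) and REPTOR (10 in 25.5 kb). Genes were not ranked by density.

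**Figure D4:**
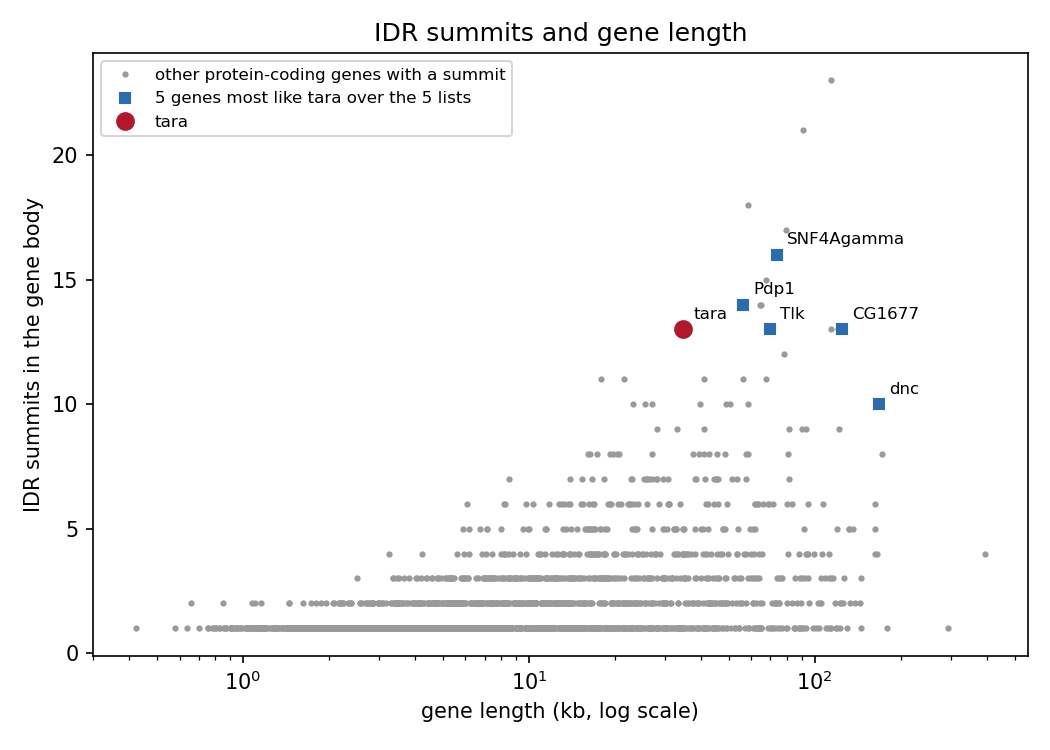
IDR summits in the gene body against gene length (kb, log axis) for protein-coding genes with at least 1 summit; the red point is tara, with 13 summits in 34.7 kb, and blue squares are the 5 genes most like it over the 5 lists. The blue squares lie to the right of tara, at 55.9 to 167.3 kb with 10 to 16 summits.

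Genes of the trithorax group and genes linked to tara were taken from lists drawn from general knowledge, chosen with results of these data known. For these lists a promoter summit is one within 1000 bp of a TSS, a wider window than the 500 bp used for tara. Of 15 trithorax group genes, 10 (66.7%) had such an IDR summit, against 25.1% of all protein-coding genes. Among the strongest regions of replicates 1, 2 and 3, 10, 11 and 7 had one. With 500 bp in place of 1000 bp, 8 of the 15 had an IDR summit. The strongest was at brm, the ATPase of the Brahma chromatin remodelling complex, 130 bp from a TSS at IDR rank 190, with ranks 148, 1051 and 213 in the replicates. Trl, the GAGA factor gene, followed at rank 1264. The Mediator kinase module genes skd and kto were at ranks 1862 and 2689, and the histone demethylase gene lid (Kdm5 in the annotation) lay between them at 2331. The others were the histone methyltransferase gene trr (3720), ash2, a subunit of methyltransferase complexes (4213), the Brahma complex gene mor (4660), Brd8 (5438) and the chromodomain helicase gene kis (5606). Peaks of trr, ash2, kis, mor and Brd8 were missing from the strongest regions of at least 1 replicate. The genes trx, ash1, osa, Snr1 and Utx had none, although trx and osa each held 5 IDR summits in their bodies and had a promoter summit among the strongest regions of replicates 1 and 2.

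Of 9 genes linked to tara by partnership or regulation, 5 (55.6%) had an IDR promoter summit, against 25.1% of all protein-coding genes. This list too was chosen with results of these data known. Among the strongest regions of replicates 1, 2 and 3, 5, 5 and 4 of the genes had one, with E2f1 missing from replicate 3. The cell cycle factor genes E2f1 and Dp were at ranks 2610 and 1300, and the corepressor gene CtBP was at rank 857. The Hedgehog effector gene ci and the Polycomb group gene ph-p were at ranks 110 and 16, the highest of the lists. Cyclin A (CycA), its partner kinase gene Cdk1, the mitotic regulator gene Rca1 and the posterior selector gene en had no promoter summit in the IDR list or among the strongest regions of any replicate. With 13 summits in its body, tara exceeded every gene of both lists, whose highest count was 5. Since tara was selected for its dense peaks, this is a description. The counts are not adjusted for length, which ran from 1.52 kb (Cdk1) to 40.6 kb (E2f1) in the lists, against 34.7 kb for tara.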

How the data were processed

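Peak lists from ChIP-seq of 3 biological replicates were used as deposited. Per the deposited file descriptions, regions in dm6 coordinates were derived from each replicate alignment, and from the 3 alignments together, always with the same control alignment; the IDR list was derived from these 4 lists. The peak signal in these lists is the authors' own, with no stated scale, and was used as a rank within a list. The aligner, the caller and the IDR threshold are not given in the sources used here. Depth is unknown, so differences between replicates in depth could not be weighed. No counting interval is given for peaks, except the one for the share of pooled regions. Every relaxed list holds 30000 regions, and the 6201 IDR summits are the 6201 strongest pooled summits, so presence in the IDR list does not show recurrence in each replicate. Replicate regions were matched to IDR peaks by any overlap, taking the one with the highest signal.

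Genes and 19607 TSSs come from the Ensembl release 115 annotation (BDGP6.54, dm6 coordinates) and bases from the RefSeq release 6 genome. Summits were placed on protein-coding genes only, by the first of TSS within 500 bp, UTR, coding exon, intron and intergenic. Calculations used Python 3.11.15, numpy 2.4.6, scipy 1.17.1 and matplotlib 3.10.9, and were tested on simulated data. No test between groups was possible with 1 group. Spread is the SD of 3 counts, 1 per replicate, each made on the 6201 strongest regions of that replicate list. The locus, gene lists, sequences and naming rules were chosen with earlier results of these data known. Named genes were those overlapping the window, the 5 most like tara, and the lists. Alternatives covered flank, overlap, TSS and sequence windows, a stricter IDR list (ranks 1 to 3100), and each replicate left out.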

Additional observations from a re-analysis of the deposited data

How the results depend on the processing

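Of 48 alternatives to 8 results, 35 left the value within 1.5 times its main value (for the share of pooled regions, within its 95% Wilson interval) and 13 did not. The 25 IDR summits became 13 with no flank, which is fewer bases by construction, and 16 with the 3100 strongest IDR peaks. Those peaks also gave 1 promoter summit in place of 2, 7 intron summits in place of 11, and 5 trithorax group genes in place of 10. Recurrence in all replicates was 8 of 25 with 50% reciprocal overlap and 24 with whole relaxed lists, in place of 15. Taking the region with the nearest summit, an alternative chosen after seeing the data, gave 13 of 25, against 52.4% of all IDR peaks. The Iroquois sequence was at 0 summits, and at 3 with 250-bp windows; without 1 replicate the mean over the remaining lists was 0.5 to 1.5. The GATA sequence was at 0 summits with 50-bp windows and 2 with 250-bp windows, in place of 1; the cause of these moves other than window and list size was not tested. The IDR list was not remade with a replicate left out. Instead, the counts are means over the strongest regions of the remaining replicates. They were 24 to 26 summits in the locus, 1.5 to 2 at the promoters and 12 to 13.5 in introns. GATA matches came to 1 to 1.5 and trithorax group genes to 8.5 to 10.5. Recurrence of the same 25 IDR peaks in both remaining replicates was 17 to 20, a count that cannot fall below 15 because fewer overlaps are required. The pooled share (44.6%) has no such replicate value and cannot be recomputed without a replicate. No paired analysis was possible because the samples form 1 group. Unknown depth limits any statement on regions absent from 1 replicate, such as the one past the end of tara.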

Other observations

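The following values at the locus belong in no comparison above and were chosen after they were seen. The E-box CAGCTG had 0 matches within 100 bp of the 25 IDR summits but lay at 11 of the 36 pooled regions of the locus that overlapped no IDR peak, and at 10.4% of such regions over all arms. Among the strongest summits of the locus it lay at 2 of 23, 3 of 27 and 0 of 25 in replicates 1, 2 and 3. The locus held 46 matches in all, 6.16 per 10 kb against 4.70 on arm 3R. GAGA matches came to 5.36 per 10 kb of the locus and 2.15 on arm 3R, and CA repeats to 8.57 and 5.27, with overlapping matches counted separately.

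In replicate 1, the region 1109 bp upstream of tara-RA ranked 1640, and it overlapped no region of the pooled list or of replicate 3; it overlapped a pair of replicate 2 regions, 1 at rank 1580 that also overlapped peak 16 and 1 at rank 22121 that did not. In replicates 2 and 3, regions 23154 and 23190 bp from the tara-RA start ranked 2426 and 5007, and replicate 1 had no region there. Their pooled region, at rank 6263, was the strongest of the locus below the IDR threshold.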
